A study of Homo sapiens with 35 samples.

Results

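The respiratory chain genes described here are 50 genes that encode subunits of the 5 enzyme complexes of oxidative phosphorylation. They are 37 listed nuclear genes and all 13 protein-coding genes of the mitochondrial genome, out of 58581 genes counted. They were chosen by name, with earlier results of these data known. Complex I (NADH dehydrogenase) has 27 members, complex II (succinate dehydrogenase) 4, complex III (cytochrome bc1) 7, complex IV (cytochrome c oxidase) 10 and complex V (ATP synthase) 2, both mitochondrially encoded. Rows of pseudogenes were not members. All 50 genes passed the filter on low counts in every comparison.

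H9 is an established line of human embryonic stem cells, and its poly(A) RNA was read in 35 libraries of 25 groups. All groups share their start: culture on Matrigel in E8 medium, EDTA passaging and seeding as single cells. The groups are BA (E6 medium with BMP4 and Activin A, each at 40 ng/mL), E6 (the control for spontaneous differentiation), E8 (the pluripotency control), each sampled every 6 h from 6 to 48 h, and t0, sampled at seeding. BA at 24 h and 48 h, E6 at 48 h, E8 at 48 h and t0 have 3 libraries each, and the other 20 groups have 1. Separate cultures are not stated for the replicates, so p-values may measure technical spread only, and all libraries come from 1 cell line. Fits of trends and of matched hours used 1 library per medium and hour. Their p-values measure scatter about the fit, not spread between replicates.

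The chain passes electrons from NADH and succinate to oxygen, and the proton gradient this builds drives ATP synthesis. The mitochondrial genome encodes hydrophobic core subunits and is transcribed as long strands that are then cut into shorter RNAs. Nuclear genes encode the remaining subunits, all of complex II among them. Pluripotent stem cells are known for relying strongly on glycolysis, and their oxidative metabolism is reorganised as they differentiate.

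Some mitochondrial genes share bases, so that their counts cannot be fully separated. MT-ATP8 and MT-ATP6, the complex V members, overlap by 46 bases, and MT-ND4L and MT-ND4 of complex I by 7. MT-ND6 lies on the other strand from all other members of that genome, and the strandedness of the counts is not given in the sources used here. The overlaps are shown with the shared bases in capitals (GRCh38, plus strand, chrM:8515-8584 and chrM:10748-10778).
MT-ATP8 and MT-ATP6: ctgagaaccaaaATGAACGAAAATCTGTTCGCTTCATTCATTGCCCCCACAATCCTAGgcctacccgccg
MT-ND4L and MT-ND4: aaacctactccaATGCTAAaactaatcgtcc

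Nuclear respiratory genes are classically tied to the factors NRF1, GABPA (an ETS factor) and YY1, so their promoters were searched on both strands for GCGCATGC (NRF1), CCGGAAGT (ETS) and AAGATGGC followed by GG (YY1). RefSeq promoters (GRCh38.p14, 250 bases before to 50 after the start) were matched for 30 of the 37 nuclear members. The NRF1 letters were in 6 of the 30 (20%), against 3.27% of all 27305 promoters. The ETS letters were in 5 (16.7%), against 4.44%, and the YY1 letters in 5 (16.7%), against 1.28%. At least 1 of the 3 was in 12 (40.0%), against 8.41% of all promoters, and no matches of different motifs overlapped in a member. A longer NRF1 form, GCGCATGC followed by GC, was in 2 (6.67%), against 1.36%. In complex II, SDHB held the NRF1 and YY1 letters and SDHD the NRF1 and ETS letters. SDHA and COX5A, whose levels differed most clearly between media, held no exact match to any of the 3. Inexact matches were not counted. Windows of 30 bases are shown for SDHB (chr1:17054214-17054243, minus strand) and SDHD (chr11:112086752-112086781, plus strand), with the NRF1 match on either strand in capitals. For SDHA (chr5:218290-218319, plus strand) and COX5A (chr15:74938074-74938103, minus strand) the 30 bases before the start are shown.
SDHB: aagccaaatggGCATGCGCcgctactgcgc
SDHD: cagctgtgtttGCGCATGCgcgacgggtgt
SDHA: cccggtgtggtgcgcaggcgcagtctgcgc
COX5A: agcctgtccggcccccgcccgctccggagc

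The libraries fall into sets that differ strongly in these genes. Replicate 1 of each group and the single libraries (25, called the first set) had 11793453 to 22115047 counts, and replicates 2 and 3 (10, the second set) had 26097462 to 37191969. Levels are given in CPM, counts scaled to a common library total with TMM factors. The 37 nuclear members summed to 2725 to 3471 CPM in the second set, against 1263 to 1548 CPM in the first set apart from E6 at 18 h (2679 CPM) and E8 at 24 h (2178 CPM). Those 2 libraries stood apart, and results that rest on them are also given without the 18 h and 24 h libraries. The 13 mitochondrial members held 1.77% to 5.09% of counts in the second set and 1.18% to 2.20% in the first set. In the first set the lowest share was that of BA at 42 h. The gene CDH1 was low in that library, at 22.1 CPM against a first-set median of 120.3 CPM. It was also low in this set in BA at 48 h (41.3 CPM) and in E8 at 36 h (24.2 CPM) and 18 h (18.2 CPM). The mitochondrial shares there were 1.44%, 1.57% and 1.82%, and a link with CDH1 was not tested. The 6 pluripotency markers checked were above 0 in every group and summed to 3930 to 5555 CPM at t0. From 6 to 48 h in the first set they summed to 1941 to 3331 CPM in BA, 3947 to 4738 CPM in E6 and 3207 to 4527 CPM in E8. SOX2 of this list fell in that BA series from 140.8 CPM at 6 h to 3.5 CPM at 48 h. In the second set, BA at 48 h had sums of 4423 and 5505 CPM, with SOX2 at 162.4 and 130.6 CPM in replicates 2 and 3.

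**Figure D1:**
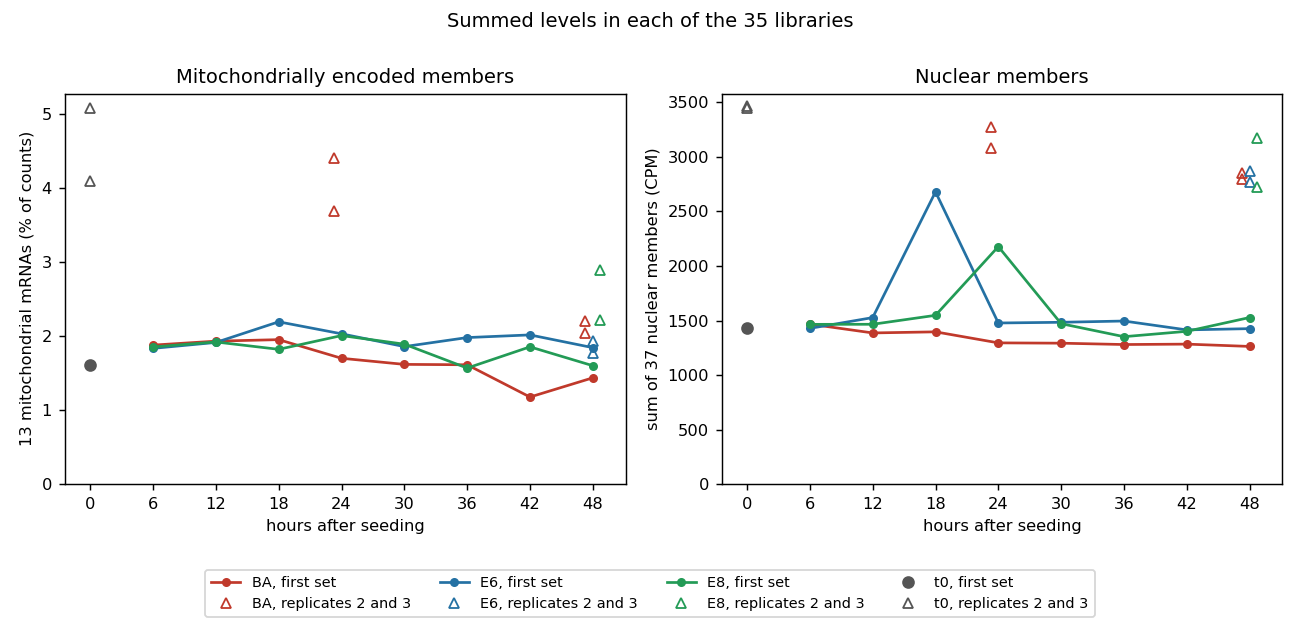
The 13 mitochondrial members as a percentage of counts (left) and the summed CPM of the 37 nuclear members (right) are plotted against hours after seeding. Each library is 1 point. Lines join the first set of each medium, and the separate points at 0, 24 and 48 h are replicates 2 and 3, whose nuclear sums (2725 to 3471 CPM) lie above all of the first set.

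Among the mitochondrial members, level per length was highest for MT-CO1, the catalytic subunit of complex IV. In the first set without E6 at 18 h and E8 at 24 h it stood at 3742 ± 586 CPM per kb (SD, n = 23). MT-ND4 followed at 2033 ± 190, MT-ND4L at 1864 ± 201, MT-CO3 at 1734 ± 183, MT-CO2 at 1687 ± 183, MT-ATP6 at 1570 ± 234 and MT-ATP8 at 1428 ± 338 CPM per kb. Each step in this run from MT-ND4 down was smaller than the SDs beside it. MT-ND5 at 1103 ± 151, MT-CYB, the cytochrome b of complex III, at 952 ± 123, MT-ND1 at 673 ± 117, MT-ND6 at 624 ± 91.7 and MT-ND2 at 545 ± 87.4 CPM per kb were lower. The lowest level per length was that of MT-ND3, at 359 ± 48.1 CPM per kb.

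The second set gave another order. MT-CO3 led at 5456 ± 3173 CPM per kb (SD, n = 10), then MT-CO2 at 4104 ± 2841, MT-CO1 at 3915 ± 1520 and MT-ND4 at 3823 ± 1190 CPM per kb. MT-ND1 stood at 2478 ± 767, MT-CYB at 2407 ± 1090, MT-ATP6 at 2400 ± 1521, MT-ND4L at 2200 ± 798, MT-ND2 at 1770 ± 944, MT-ATP8 at 1324 ± 974, MT-ND5 at 1259 ± 394, MT-ND3 at 1045 ± 454 and MT-ND6 at 828 ± 158 CPM per kb. These libraries come from 5 groups with unlike levels. Counts of MT-CO2 were 0.271 to 0.660 of those of MT-CO1 in the second set, with a median of 0.341, and 0.170 to 0.410 in the first set, with a median of 0.197, so the ranges overlap. The overlap comes from E6 at 18 h (0.410) and E8 at 24 h (0.303), without which the first set reached 0.242.

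Among nuclear members, the most counts in each complex over all 35 libraries, without correction for length, came from NDUFS1, an iron-sulfur subunit of complex I, from SDHC, a membrane anchor of complex II, from UQCRC1, a core protein of complex III, and from COX4I1, a structural subunit of complex IV. At t0, NDUFS1 had 159.1, 126.7 and 130.9 CPM in replicates 1, 2 and 3. For SDHC these values were 57.0, 108.6 and 103.5 CPM, for UQCRC1 148.5, 221.2 and 217.1 CPM, and for COX4I1 71.7, 271.5 and 274.6 CPM. Only NDUFS1 of these 4 was highest in replicate 1. This order differed between sets for complexes I and II. In the first set SDHA averaged 65.4 CPM and SDHC 56.4 CPM, and in the second set NDUFA4, listed under complex I, averaged 177.5 CPM and NDUFS1 101.1 CPM. NDUFV2, a complex I flavoprotein subunit, was counted at about 1 CPM, with 94.3% of the reads of the gene and its copy assigned to NDUFV2P1, and its values are uncertain. Pseudogene rows held 17.1% of joint reads for COX6A1, 13.3% for SDHA, 13.1% for UQCRB and 10.5% for NDUFB8, which are uncertain to that extent.

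Among nuclear members the difference between sets was larger for short transcripts. The 20 nuclear members with an annotated length under 1000 bases were higher in the second set by a median of 1.91 on the log2 scale, averaged over the 5 replicated groups, with a range of 0.21 to 3.55. The 17 longer ones were higher by a median of 0.76 with a range of -0.62 to 1.90, and 3 of them were lower: NDUFA5 by -0.62, NDUFS1 by -0.50 and SDHD by -0.45. COX6A1, a small complex IV subunit, had the value of 3.55, with 125.6 and 121.7 CPM at t0 in replicates 2 and 3 against 8.8 CPM in replicate 1. Across the 37 nuclear genes the difference correlated with log length at Pearson's r = -0.575 and Spearman's rho = -0.661. The 13 mitochondrial genes did not follow this, at 0.216 and 0.137. MT-ATP8, the shortest of them (207 bases), had -0.09. Genes are not independent replicates and share these libraries, and a part for library preparation was not tested.

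**Figure D2:**
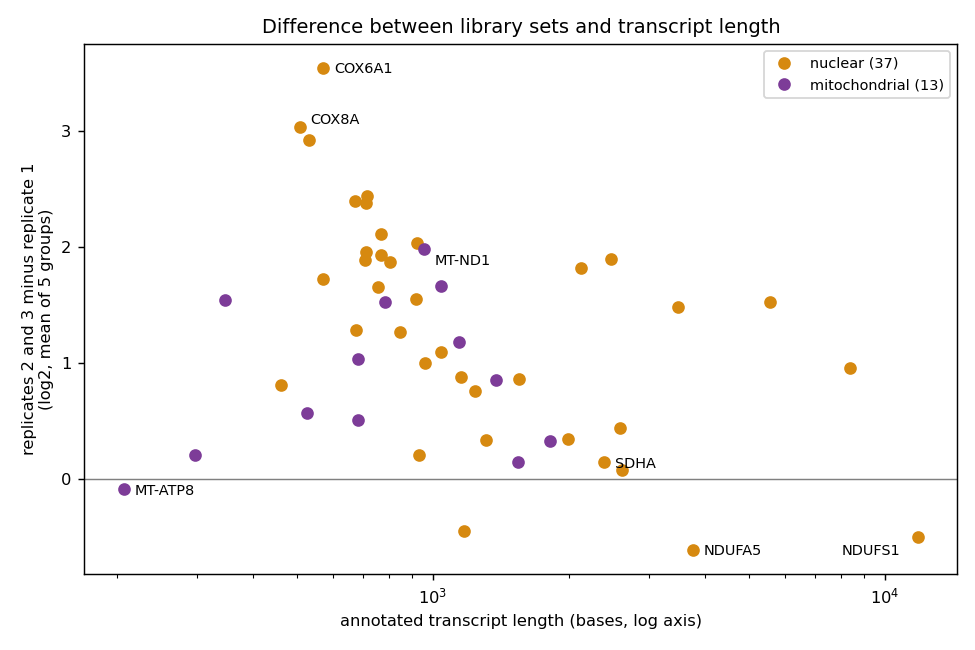
Each point is a member, with annotated transcript length in bases on a log axis and the log2 difference of replicates 2 and 3 minus replicate 1 (mean of 5 groups) on the vertical axis. Nuclear members under 1000 bases lie between 0.21 and 3.55, and longer ones between -0.62 and 1.90. The 13 mitochondrial members lie between -0.09 (MT-ATP8, the shortest) and 1.98.

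Over the first 48 h SDHA and COX5A fell in BA, while no member had a trend that passed the test in E6 or in E8. SDHA encodes the flavoprotein that oxidises succinate in complex II. In BA it stood at 69.8, 66.1, 59.2, 59.2, 53.4, 45.8, 38.3 and 39.1 CPM at 6, 12, 18, 24, 30, 36, 42 and 48 h. Over the same hours it stood at 69.5, 70.1, 93.8, 69.3, 74.7, 76.2, 67.4 and 66.2 CPM in E6. E8 gave 68.3, 69.6, 76.6, 82.5, 72.3, 70.8, 70.2 and 80.9 CPM, and t0 70.6, 71.2 and 72.5 CPM. From 18 h on, every BA value of this set lay below all E6, E8 and t0 values. A linear trend in BA fell by 0.52 ± 0.07 per 24 h on the log2 scale (SE, 8 libraries, edgeR quasi-likelihood test, adjusted p = 0.0011).

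COX5A, a structural subunit of complex IV, also fell in BA. In BA it had 46.2, 43.4, 42.6, 34.5, 30.1, 25.9, 28.9 and 27.5 CPM from 6 to 48 h. E6 libraries had 46.6, 51.9, 111.0, 50.7, 46.9, 49.0, 50.8 and 49.1 CPM at those hours, and E8 libraries 48.3, 47.0, 51.4, 80.9, 50.2, 42.1, 47.9 and 56.4 CPM. The values of 111.0 and 80.9 CPM belong to the 2 libraries that stood apart. At t0 COX5A had 50.2 CPM in replicate 1 and 152.3 and 152.2 CPM in replicates 2 and 3. Its trend in BA fell by 0.50 ± 0.09 per 24 h on the log2 scale (SE, edgeR quasi-likelihood test, adjusted p = 0.0046).

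**Figure D3:**
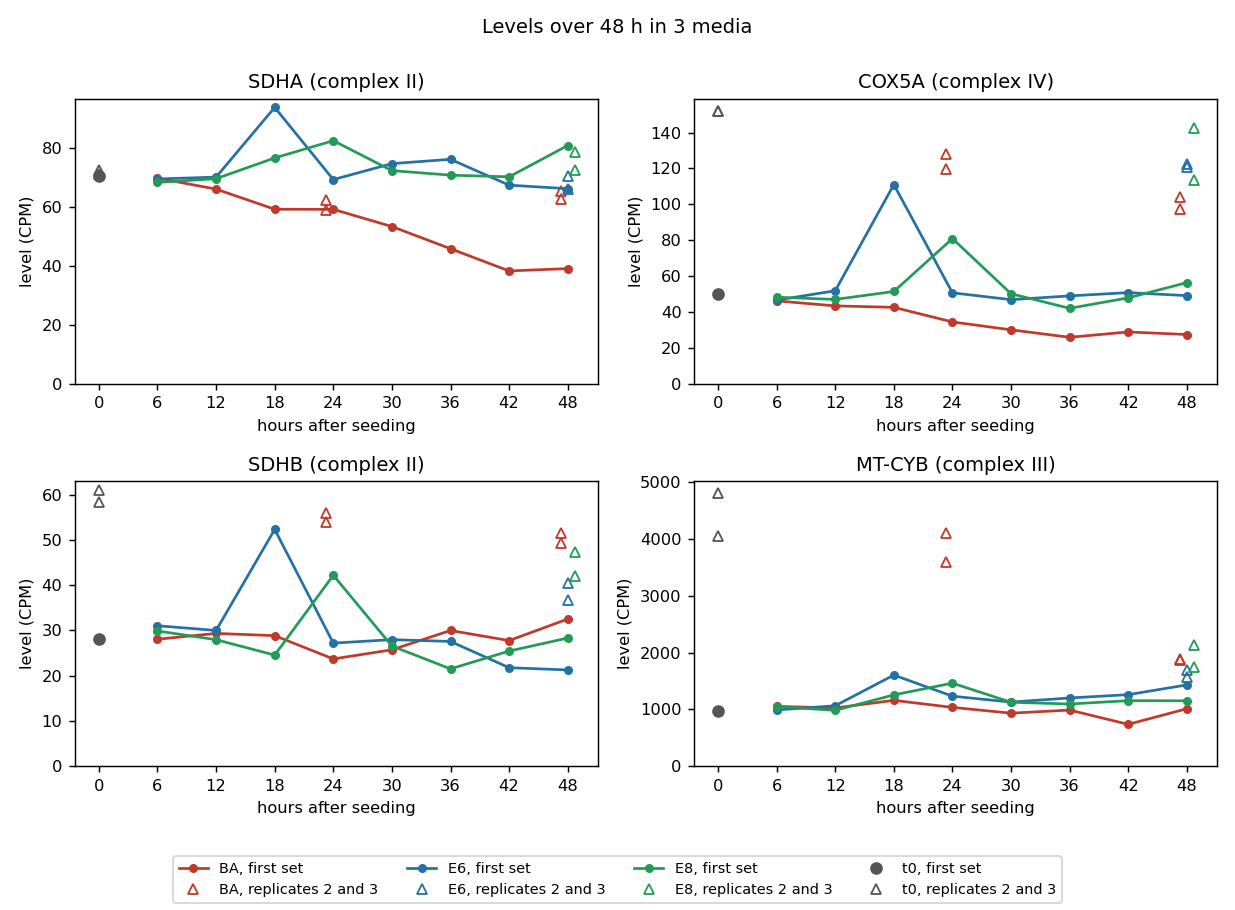
Levels in CPM of SDHA, COX5A, SDHB and MT-CYB are plotted against hours after seeding in BA, E6 and E8, with lines for the first set and separate points for replicates 2 and 3. SDHA in BA reached 38.3 CPM at 42 h and COX5A 25.9 CPM at 36 h, while E6 and E8 lines had no fall that passed the test.

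In all, 7 of 50 members had a falling trend in BA, where 9.96% of 17056 genes tested fell and 20.4% were called in either direction. The other 5 were NDUFB9, an accessory subunit of complex I (-0.36 per 24 h, adjusted p = 0.0119), NDUFA8, another such subunit (-0.32, 0.0340), MT-CO1 (-0.41, 0.0365), MT-ND6 (-0.32, 0.0240) and MT-ND5 (-0.31, 0.0294), by the edgeR quasi-likelihood test. None rose. MT-CO1 spanned 3523.4 CPM (at 42 h) to 6850.7 CPM (at 12 h) in BA. NDUFB9 spanned 18.0 CPM (at 42 h) to 27.7 CPM (at 12 h). The median trend was -0.12 per 24 h for the nuclear members, -0.27 for the mitochondrial members and 0.00 for all genes. In E6 the nuclear and mitochondrial medians were -0.24 and -0.11, and in E8 -0.09 and -0.18. Falling medians were thus not particular to BA. Without 18 h and 24 h they were -0.12 and -0.23 in BA, -0.03 and -0.04 in E6, and -0.01 and -0.20 in E8. In BA, only SDHA and COX5A were called without these hours, 2 of 50 members, where 13.3% of all genes were. Setting 30 to 48 h against 6 to 24 h called 3 members, where 10.8% of genes were. With 1 hour left out the count was 3 without 18 h, 4 without 6 or 12 h and 5 to 7 otherwise. Neither E6 nor E8 had a called member (2 and 0 genes called, 0.0118% and 0.0%), and DESeq2 called 0 members in either. At an unadjusted p below 0.05 by edgeR there were 2 members in E6 (1408 of 16915 genes) and 7 in E8 (1153 of 16761 genes). All 7 in E8 fell. Among the largest fitted trends were SDHB at -0.44 ± 0.19 per 24 h in E6 (adjusted p = 0.569) and MT-ATP8 at -0.48 ± 0.15 in E8 (0.498), by edgeR.

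At matched hours BA was next compared with E6 and with E8, and both comparisons use the same 8 BA libraries. SDHA was lower in BA than in E6 by -0.46 ± 0.08 (log2, SE, 16 libraries, edgeR adjusted p = 8.67e-04), in 7 of 8 hours. Against E8 the difference was -0.47 ± 0.05 (edgeR adjusted p = 6.5e-05), in 7 of 8 hours, and the exception was 6 h each time. COX5A was lower in BA than in E6 by -0.66 ± 0.12 (edgeR adjusted p = 0.0013) and than in E8 by -0.60 ± 0.09 (5.88e-04), in 8 of 8 hours each time. Both genes stayed below 0.05 in both comparisons with any 1 hour left out and without 18 h and 24 h. A spline of time over all libraries of both media was also fitted in place of matched hours. Its edgeR test is joint, of level and time course between the media, and not of the mean difference. By this test COX5A lost the call in both, with adjusted p = 0.963 against E6 and 0.927 against E8. The mean fitted differences of COX5A over the hours were -0.31 and -0.24. That fit called 1 member in each, where 12.3% and 12.8% of genes were called.

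Whether the gap widened with time was tested as the interaction of medium with hour. For SDHA the difference between BA and E8 moved by -0.59 ± 0.09 on the log2 scale per 24 h (edgeR adjusted p = 0.0044; 0.00496 to 0.0339 with any 1 hour left out). It was the only called member, 1 of 50, where 8.87% of all genes were called. COX5A had -0.51 ± 0.16 per 24 h (adjusted p = 0.0803). Against E6, 0 members were called by edgeR, where 7.47% of genes were, and 1 by DESeq2 (9.41% of genes). At an unadjusted p below 0.05 by edgeR there were 5 members, where 3651 of 17938 genes were. SDHA had -0.46 per 24 h there (adjusted p = 0.0613) and COX5A -0.36 ± 0.21 (adjusted p = 0.376). Without 18 h and 24 h, 2 of 50 members were called against E6, where 9.77% of genes were: SDHA and COX5A, each at -0.50 per 24 h (adjusted p = 0.0123 and 0.0216). The same setting called these 2 against E8, where 7.29% of genes were. Leaving out 18 h alone gave 4 members against E6, and leaving out 24 h alone gave 2 against E8.

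The other subunits of complex II had no trend in BA that passed the test. SDHB, the iron-sulfur subunit, spanned 23.7 to 32.5 CPM in BA (median 28.4), 21.2 to 52.3 CPM in E6 (27.8) and 21.5 to 42.2 CPM in E8 (27.2) over 6 to 48 h in the first set. SDHC spanned 49.3 to 61.8 CPM in BA, 55.8 to 64.0 CPM in E6 and 53.3 to 63.8 CPM in E8. SDHD, the second membrane anchor, spanned 11.9 to 18.5 CPM in BA, 13.8 to 32.7 CPM in E6 and 16.1 to 24.5 CPM in E8. The groups overlap for all 3. Of these, SDHD alone passed a test over the hours: it was lower in BA than in E8 by -0.34 (edgeR adjusted p = 0.0153), in 8 of 8 hours, and lost the call with 1 of the 8 hours left out (adjusted p = 0.0509). Differences of trend between SDHA and these subunits were not tested.

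Counting every complex, 7 of 50 members were lower in BA than in E6, where 14.8% of 17938 genes were lower and 30.5% were called, so the share of members is near the background. Besides SDHA and COX5A they were MT-CYB (-0.30, adjusted p = 0.0096), MT-ND6 (-0.33, 0.0337), MT-ND1 (-0.32, 0.0374), MT-CO2 (-0.29, 0.0441) and MT-CO3 (-0.29, 0.0421), by edgeR. None was higher. MT-CYB spanned 734.3 to 1157.1 CPM in BA, with a median of 1015.9, and 987.1 to 1602.5 CPM in E6, with a median of 1214.7, so the groups overlap. Its call held with any 1 hour left out, while those of the other 4 mitochondrial genes did not. Fitted differences were below 0 for 36 of 37 nuclear and 13 of 13 mitochondrial members, with medians of -0.21 and -0.27 against -0.01 for all genes. Without 18 h and 24 h the nuclear median was -0.12, with 33 of 37 below 0. The spline fit, which takes in replicates 2 and 3 as well, turned the direction. Its medians were 0.03 and 0.10, with 15 of 37 and 5 of 13 members below 0. That fit had no term for library set, and the second set holds BA at 24 h and 48 h but E6 at 48 h only. The part of the sets in this turn was not tested.

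Against E8, 7 of 50 members were lower in BA, where 16.5% of 17855 genes were lower and 35.2% were called, again near the background. Besides SDHA, COX5A and SDHD they were COX8A, a small complex IV subunit (-0.45, adjusted p = 0.0463), UQCRFS1, the Rieske iron-sulfur protein of complex III (-0.28, 0.0397), UQCRC1 (-0.24, 0.0099) and MT-CYB (-0.21, 0.0393), by edgeR. None was higher. UQCRC1 spanned 121.8 to 149.0 CPM in BA and 144.2 to 217.1 CPM in E8, with overlap between them. Its call held with any 1 hour left out and without 18 h and 24 h, while COX8A, UQCRFS1 and MT-CYB were not called without 18 h and 24 h. The median difference was -0.21 for nuclear and -0.14 for mitochondrial members, and -0.00 for all genes, with 34 of 37 and 12 of 13 below 0. Without 18 h and 24 h the nuclear median was -0.09. The spline fit, again without a term for library set, turned the direction here too. Its medians were 0.06 and 0.11, with 14 of 37 and 4 of 13 members below 0.

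Without the 18 h and 24 h libraries, the count against E6 was 6 (NDUFB9, SDHA, UQCRC1, COX5A, MT-ND4 and MT-CYB), where 31.2% of genes were called, and against E8 it was 4 (SDHA, SDHD, UQCRC1 and COX5A), where 28.9% were. Leaving out 1 hour at a time gave counts against E6 of 17 without 18 h, 12 without 6 h, 10 without 48 h, 4 without 30 h and 3 without 12, 24, 36 or 42 h. Against E8 these counts were 4 without 12, 18 or 36 h and 5 or 6 otherwise.

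**Figure D4:**
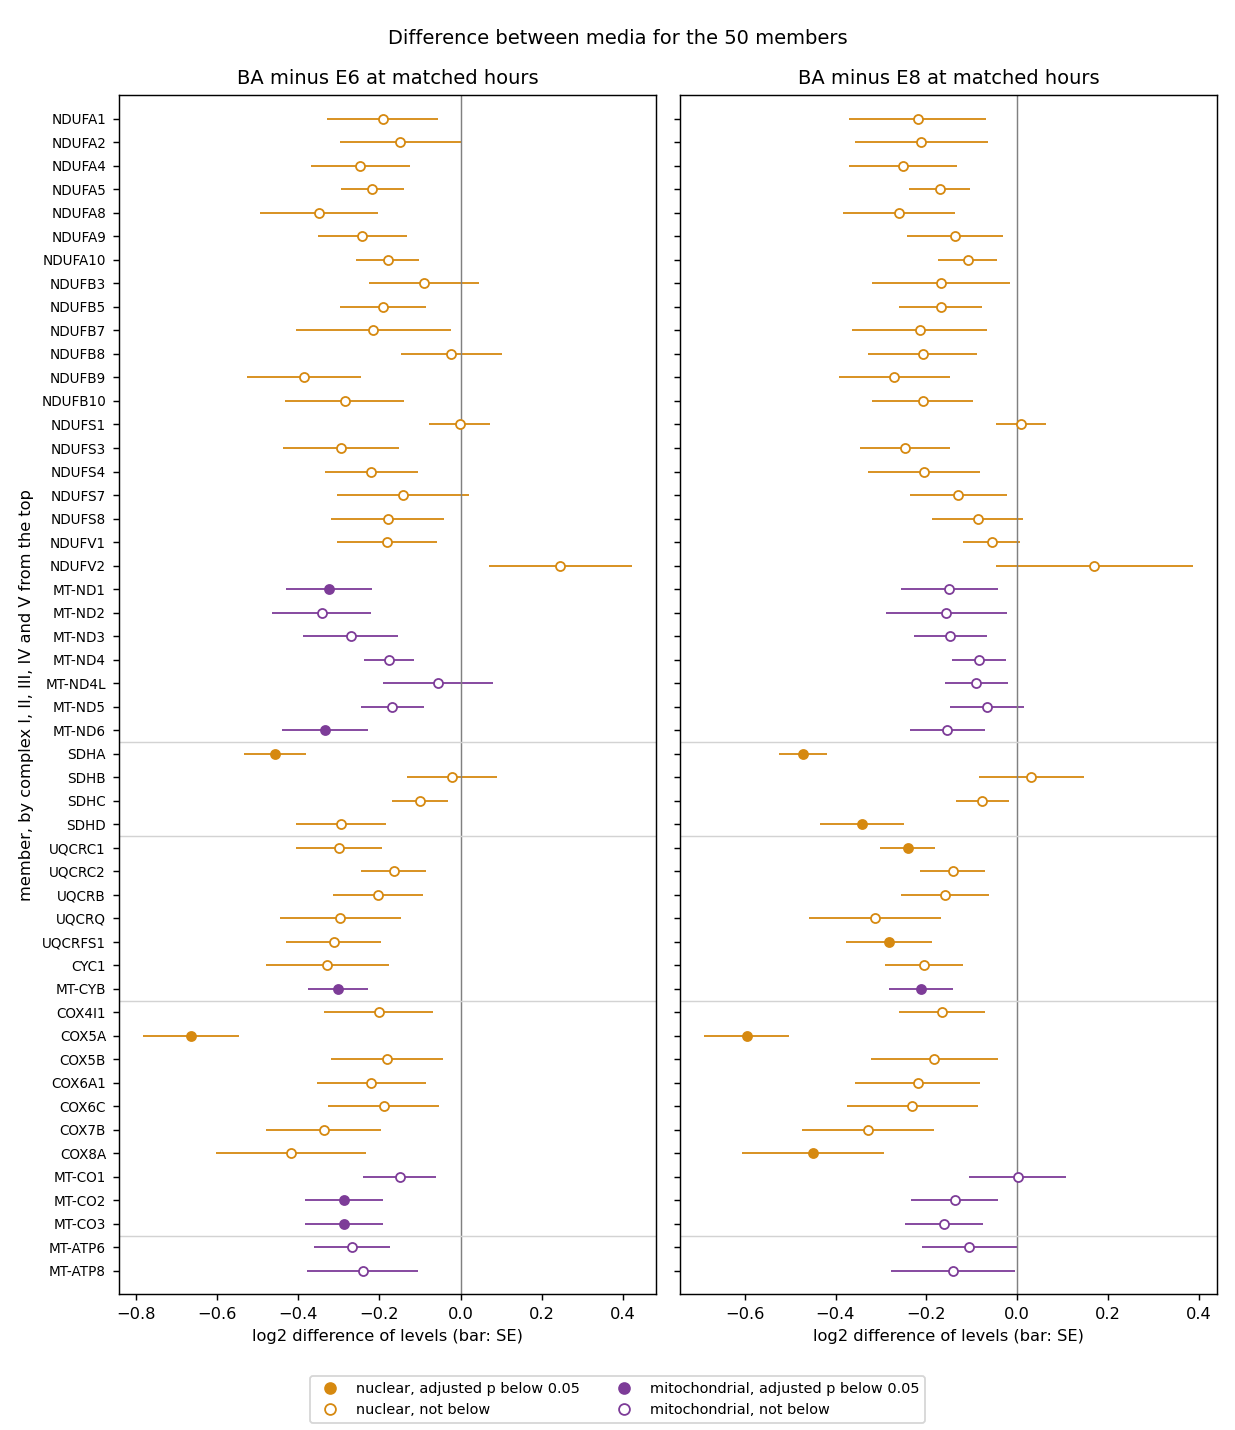
Log2 differences of BA minus E6 (left) and BA minus E8 (right) at matched hours are drawn for the 50 members, with SE bars, ordered by complex from the top and filled where the adjusted p is below 0.05. Most members lie left of 0, and 7 are filled in each panel.

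No member differed between E6 and E8 at matched hours by a test that passed. Here edgeR called 0 members and 0 genes (0.0%), with 1 member at an unadjusted p below 0.05 (472 of 17530 genes). DESeq2 called 0 members. Median differences of E6 minus E8 were 0.02 for the nuclear and 0.12 for the mitochondrial members. The largest fitted differences were -0.19 ± 0.15 for NDUFB8 and 0.18 ± 0.10 for MT-ND2 (edgeR adjusted p = 1 each). The interaction with hours called 0 members and 0 genes as well (0.0%), with 0 members at an unadjusted p below 0.05 (654 of 17530 genes).

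Marker genes of other cell types moved with BA in the same libraries. The 5 primitive streak markers summed to 21.0 to 2730 CPM in BA over the first set, against 2.1 to 11.6 CPM in E6 and 1.5 to 8.8 CPM in E8. The 4 definitive endoderm markers summed to 19.2 to 4529 CPM in BA, 7.7 to 14.2 CPM in E6 and 5.5 to 24.5 CPM in E8. At the top of the BA range, at 42 h, CER1 alone had 4442 CPM. FOXA2 of this list had 1.9 CPM in BA at 42 h, against 5.9 CPM in E6 and 7.3 CPM in E8. At 48 h FOXA2 had 8.7 CPM in BA, against 3.9 CPM in E6 and 5.9 CPM in E8. The 6 fibroblast markers, 2 of them below 1 CPM throughout, summed to 247.7 to 817.7 CPM in BA, 154.8 to 264.2 CPM in E6 and 146.5 to 225.4 CPM in E8. They did not move together. From 6 h to 42 h in BA, COL1A2 went from 74.9 to 770.6 CPM and COL1A1 from 151.7 to 26.9 CPM. DCN of this list was at 0 CPM in all BA libraries at 48 h. The 4 neuroectoderm markers were highest in E6, with sums of 3.8 to 34.7 CPM, against 1.3 to 2.7 CPM in BA and 4.3 to 7.8 CPM in E8. FEZF1 of these had 28.2 CPM in E6 at 48 h in replicate 1. These are bulk libraries, in which fewer cells of a type and less RNA per cell cannot be told apart. The part of cell composition in the values of SDHA and COX5A was not tested.

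In the second set these markers were far lower in BA at 48 h, at 114.3 and 114.9 CPM for the streak list, against 1828 CPM in replicate 1, and at 45.5 and 46.4 CPM for the endoderm list, against 2853 CPM. At 48 h SDHA had 39.1, 65.3 and 62.6 CPM in BA, replicate 1 first, against 80.9, 78.5 and 72.6 CPM in E8 and 66.2, 70.4 and 66.0 CPM in E6. The 3 BA values lay below all E8 and all E6 values. Against BA at 24 h, the log2 difference of SDHA was -0.59 in replicate 1 and 0.08 in the second set. COX5A had 27.5, 104.2 and 97.2 CPM in BA, against 56.4, 142.6 and 113.8 CPM in E8 and 49.1, 122.3 and 120.6 CPM in E6, so that BA was lowest within each replicate number. SDHB was highest in BA within each replicate number, with 32.5, 51.4 and 49.4 CPM in BA, 28.3, 47.4 and 42.1 CPM in E8 and 21.2, 40.4 and 36.6 CPM in E6.

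None of the 50 members was called between BA and E8 at 48 h (2.44% of 21554 genes called) or between BA and E6 at 48 h (3.52%) by edgeR across 3 replicates a group. At an unadjusted p below 0.05 there were 1 and 0 members (2931 and 3348 of 21554 genes), and DESeq2 called 0 in both. Fitted changes against E8 were -0.46 ± 0.16 for SDHA (edgeR adjusted p = 0.200) and -0.45 ± 0.62 for COX5A (0.933). Replicate numbers were treated as pairing these libraries, which the labels do not state. With the replicate number as a block edgeR called SDHA (-0.47, adjusted p = 0.0328) and COX5A (-0.55, 0.0136) lower in BA than in E8. These were 2 of 50 where 17.6% of genes were called. Against E6 the block called SDHB higher (0.48, 0.0169) and COX5A lower (-0.44, 0.0299) in BA, 2 of 50 where 22.1% were. With replicates 2 and 3 alone, edgeR gave -0.28 for SDHA (adjusted p = 0.0098) and -0.38 for COX5A (0.0082) in BA against E8, among 7 members called where 33.1% of genes were. Against E6 that fit also called 7, where 36.7% were.

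Other fitted changes at 48 h did not pass the test. Against E6, BA had 0.44 ± 0.38 for SDHB, 0.20 ± 0.93 for UQCRQ, a complex III subunit, and 0.39 ± 0.68 for MT-ND2 (log2, SE). For MT-ATP8 the change was 0.45 ± 0.44, for MT-CO2 0.37 ± 0.56 and for MT-CYB 0.03 ± 0.54, each with an edgeR adjusted p of at least 0.733. E6 against E8 gave 0 called members (0.144% of genes called), 0 by DESeq2 and 0 with the replicate block (2.84%). At an unadjusted p below 0.05 there were 0 members by edgeR, where 1017 of 21554 genes were. With replicates 2 and 3 alone 7 members were lower in E6 than in E8, NDUFA5, COX6C, MT-ND1, MT-ND2, MT-ND6, MT-CO2 and MT-ATP6, where 18.4% of genes were called. Across 3 replicates the fitted change of MT-ND5 was -0.42 ± 0.26, and that of SDHD -0.29 ± 0.31, both with an edgeR adjusted p of 1.

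At the later times mitochondrial mRNAs were lower in the second set, while replicate 1 went in both directions. The log2 differences of the 13 genes ran from -1.49 (MT-CO2) to -0.43 (MT-ND6) in replicates 2 and 3 and from -0.51 (MT-CO1) to 0.25 (MT-ATP8) in replicate 1 for BA at 48 h minus 24 h. For E8 at 48 h minus t0 they ran from -1.87 (MT-CO2) to -0.11 (MT-ND6) in replicates 2 and 3 and from -0.55 (MT-ND1) to 0.25 (MT-CYB) in replicate 1. MT-ND1 in E8 was similar in both, at -0.67 in replicates 2 and 3 and -0.55 in replicate 1, with 1908.6, 2359.2 and 499.6 CPM at 48 h in replicates 2, 3 and 1, against 3056.3, 3751.5 and 731.4 CPM at t0. MT-CO2, a catalytic core subunit of complex IV, had 1063 CPM in replicate 1 and 1467 and 1645 CPM in replicates 2 and 3 of BA at 48 h, against 1075 CPM and 3974 and 4794 CPM at 24 h. In E8 at 48 h it had 1103 CPM in replicate 1 and 1364 and 1686 CPM in replicates 2 and 3, against 1043 CPM and 4987 and 6123 CPM at t0. MT-ATP6 had 926.3, 876.1 and 1052 CPM in E8 at 48 h, against 1051, 2799 and 3440 CPM at t0. Within the second set the later values of neither gene overlapped its earlier ones.

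Across all 3 replicates edgeR called 0 of 50 members for 48 h against 24 h in BA (0.455% of genes called) and 0 between E8 at 48 h and t0 (0.139%). At an unadjusted p below 0.05 there were 2 and 4 members, where 2212 and 3226 of 21554 genes were. DESeq2 called 0 and 1 (5.66% of genes in the second). The 13 mitochondrial members all had fitted changes below 0 in both, with medians of -0.68 and -0.87, while the nuclear medians were -0.11 and -0.07 and those of all genes 0.03 and -0.01. MT-CO2 had -1.21 ± 0.56 in BA at 48 h against 24 h (edgeR adjusted p = 0.495) and -1.47 ± 0.57 in E8 at 48 h against t0 (0.239). For MT-ATP8 in E8 the change was -1.37 ± 0.45 (edgeR adjusted p = 0.175).

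The replicate block changed these calls. Between E8 at 48 h and t0 it called 11 of 50 members lower, where 25.6% of genes were called: MT-ATP8 (-1.39, edgeR adjusted p = 0.0275), MT-CO2 (-1.29, 0.0473), MT-ATP6 (-1.21, 0.0283), MT-ND2 (-1.07, 0.0155), MT-CO3 (-1.05, 0.0400), MT-ND3, MT-ND1, MT-CO1, NDUFS3, NDUFS1 and NDUFB9. Between BA at 48 h and 24 h it called 1, MT-CO1 (-0.67, 0.0475), where 10% of genes were called. With replicates 2 and 3 alone, 24 of 50 members were called in each comparison, where 34.1% and 51.3% of genes were. In BA these were all 13 mitochondrial members, lower, with 10 nuclear members lower and NDUFS4, a complex I subunit, higher. In E8 they were 11 mitochondrial members, lower, without MT-ND5 and MT-ND6, with 10 nuclear members lower and NDUFA1, NDUFB8 and NDUFV2 higher. The contrast between the sets was not itself tested.

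**Figure D5:**
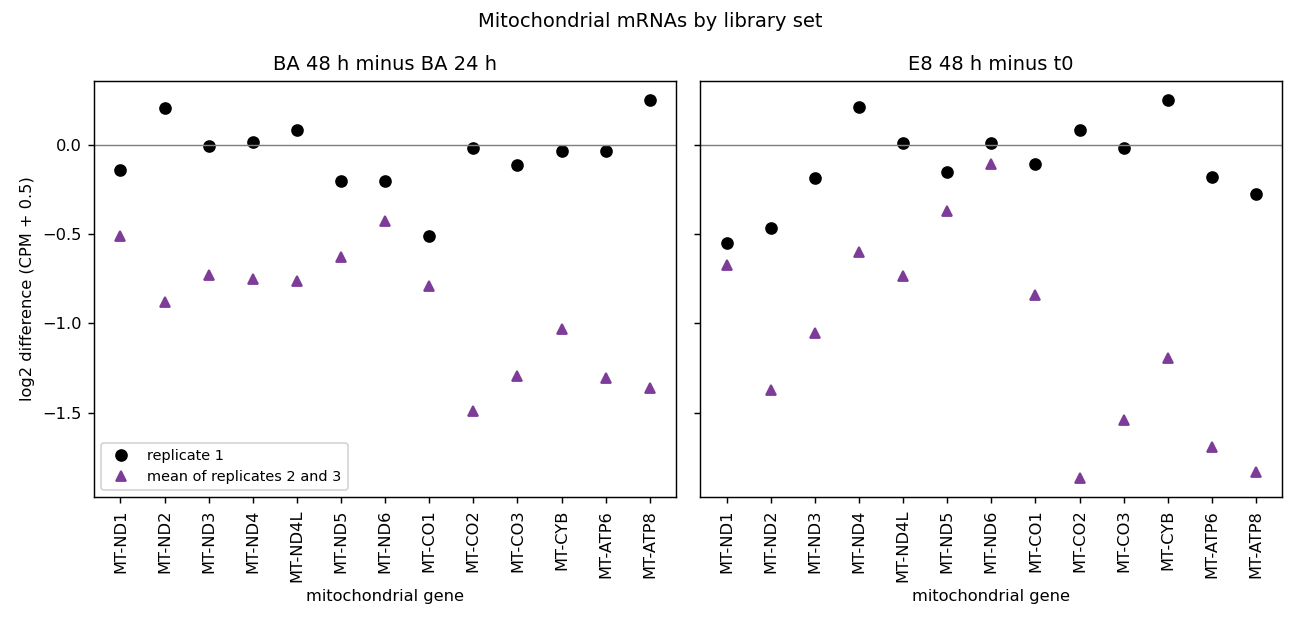
The log2 differences of CPM + 0.5 for the 13 mitochondrial members are shown separately for replicate 1 and for replicates 2 and 3. Panels are BA at 48 h minus BA at 24 h and E8 at 48 h minus t0. Points of replicates 2 and 3 are all below 0 and reach -1.49 in BA and -1.87 in E8 for MT-CO2, while replicate 1 points lie on both sides of 0, from -0.51 (MT-CO1) to 0.25 (MT-ATP8) in BA and from -0.55 (MT-ND1) to 0.25 (MT-CYB) in E8.

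From t0 to 24 h in BA, edgeR called 0 of 50 members (1.57% of genes called), DESeq2 0 and the replicate block 0 (8.95%). At an unadjusted p below 0.05 there were 0 members by edgeR, where 2021 of 21554 genes were. Replicates 2 and 3 alone called 1, MT-ND2, lower, where 20.7% of genes were called. SDHA had 59.2, 62.3 and 59.1 CPM in BA at 24 h, against 70.6, 71.2 and 72.5 CPM at t0, and these groups do not overlap. Its fitted change was -0.21 ± 0.16 (edgeR adjusted p = 0.930). COX5A had -0.28 ± 0.62, MT-ND2 -0.48 ± 0.68 and MT-ATP8 -0.41 ± 0.44 (edgeR adjusted p = 1 each). The authors' deposited table holds 0 of 50 members below an adjusted p of 0.05 in each of its 4 columns, where it lists 1.62% of its 55889 genes for BA at 24 h, and 3.49%, 3.85% and 1.39% for BA, E6 and E8 at 48 h. The group each column was set against is not stated there.

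Other genes of mitochondrial energy metabolism were read from 9 lists of 129 genes. Of 18 further complex I subunits, 0 rose and 2 fell in BA against E6, and 0 rose and 3 fell against E8. NDUFS6 had -0.43 against E6 and NDUFA3 -0.48 against E8. Both calls against E6 were lost without 18 h and 24 h (NDUFA3, adjusted p = 0.11, and NDUFS6, 0.0578), a setting that called NDUFB4 higher and NDUFS5 lower in their place. Of 8 further genes linked to complexes III and IV, CYCS (cytochrome c) among them, 0 rose and 1 fell in each comparison. That gene was COX7C (-0.58 and -0.52), a small complex IV subunit. It had 73.3 CPM in BA at 6 h and 42.1 CPM at 48 h, against 76.9 and 83.5 CPM in E6. Of 16 nuclear ATP synthase genes, 0 rose and 3 fell in each comparison. ATP5G1, which encodes the subunit c of the rotor ring, had -0.50 against E6 and -0.48 against E8.

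Assembly factors, which build the complexes, had 0 of 26 higher and 3 lower in BA against E6, and 0 higher and 5 lower against E8. SDHAF3, an assembly factor of complex II, had -0.50 ± 0.13 (edgeR adjusted p = 0.0140) and -0.61 ± 0.11 (0.00128). NDUFAF7, a complex I assembly factor, had -0.48 in both. Of 28 genes of mitochondrial transcription and RNA processing, 0 rose and 3 fell against E6, and 1 rose and 6 fell against E8. TFB1M, a methyltransferase of mitochondrial rRNA, had -0.46 and -0.48. LRPPRC, which stabilises mitochondrial mRNAs, had -0.27 and -0.32. All these shares lie near or below the backgrounds of 14.8% and 16.5% lower, except those of ATP synthase, of assembly factors against E8 and of RNA processing against E8. Without 18 h and 24 h the counts lower against E8 were 0 for complex I, 1 for ATP synthase, 3 for assembly factors and 5 for RNA processing.

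Of 10 regulators of mitochondrial biogenesis, 1 rose and 1 fell against E6, and 2 rose and 1 fell against E8. PPARGC1B, a transcriptional co-activator, stood at 17.6 CPM in BA at 6 h and 6.6 CPM at 48 h, against 31.6 and 18.3 CPM in E6 and 31.9 and 23.7 CPM in E8. It was lower in BA by -1.21 ± 0.20 against E6 (edgeR adjusted p = 7.69e-04) and by -1.44 ± 0.12 against E8. Its relative PPARGC1A was higher in BA, by 1.22 ± 0.24 against E6 and 1.16 ± 0.28 against E8, at no more than 5.8 CPM, and the second of these calls was lost without 18 h and 24 h (adjusted p = 0.0685). MYC, a growth regulator, had a trend in BA of 0.55 ± 0.12 per 24 h and reached 101.3 CPM at 48 h, against 48.7 CPM in E6. GABPA was higher in BA by 0.21 against E8, and lost the call without 18 h and 24 h (adjusted p = 0.0856).

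Among 13 tricarboxylic acid cycle enzymes, 1 rose and 1 fell against E6, and 2 rose and 2 fell against E8. Without 18 h and 24 h, CS and MDH2 lost their calls against E8 (adjusted p = 0.122 and 0.0773), which left 1 higher and 1 lower. SUCLG1, the shared subunit of succinyl-CoA synthetase, which makes the substrate of complex II, was higher in BA by 0.54 ± 0.10 against E6 and 0.61 ± 0.08 against E8. SUCLG2, its GTP-specific partner, was lower by -0.29 and -0.36. At 48 h across 3 replicates, SUCLG1 had 42.0, 40.9 and 45.8 CPM in BA. Its change of 0.83 ± 0.19 against E6 (edgeR adjusted p = 0.0318) and those of SUCLG2 (-0.59 ± 0.13, 0.0238, against E6 and -0.81 ± 0.13, 0.0061, against E8) were the calls on these lists in the replicated comparisons. Of the 2 mitochondrial rRNAs, MT-RNR1 was lower in BA against E8 (-0.32 ± 0.07, edgeR adjusted p = 0.0034) and neither was called against E6. Of 7 tissue isoforms of respiratory subunits, 0 passed the filter on low counts in the comparisons of BA with E6 and with E8 at matched hours.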

How the data were processed

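Poly(A) RNA-seq of H9 cells (TruSeq mRNA kit, per the labels' protocols) was deposited by the authors as whole read counts per gene, under GENCODE 23 symbols per the file headers; hg38, featureCounts and DESeq2 are named, without versions, in the submitters' processing notes. A second deposited table holds the authors' log2 fold changes, p-values and adjusted p-values. CPM were computed here with TMM factors over all 35 libraries (edgeR 4.0.16, limma 3.58.1, R 4.3.3).

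The edgeR quasi-likelihood test, with filterByExpr and Benjamini-Hochberg adjustment over all genes tested, was fitted to the 15 libraries of the replicated groups, to 16 first-set libraries for a pair of media (hour as a factor, medium, and medium by hour centred at 27 h), and to 8 libraries for a trend. A call is an adjusted p below 0.05. SE is the log2 change divided by the root of F. DESeq2 1.42.0 was an alternative. The scripts were tested on simulated data. Library totals of 11793453 to 37191969 counts limit the precision of low levels, and Wilson 95% intervals of the mitochondrial share were within 0.00803 percentage points, covering counting error only.

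Members, lists and tests were chosen with earlier results of these data known. Named were called members and list genes in order of size, complex II, the members with the most counts or the largest change in a complex (some of the latter only), and all mitochondrial genes. Deviations of libraries from their group means were correlated across genes passing the filter. Pairs of equal replicate number (1, 2 and 3) correlated at 0.732 to 0.884, 0.641 to 0.776 and 0.587 to 0.718. Numbers 2 and 3 correlated at 0.561 to 0.738 with each other, and number 1 at -0.823 to -0.645 with both. Each group mean holds 1 first-set and 2 second-set libraries, so a difference between sets alone can give such values. The check cannot show pairing by number, which the block assumes. Lengths and positions are from GENCODE 29 on GRCh38. The length used, the median over well-supported coding transcripts, replaced the longest principal transcript after values had been seen, and the shorter NRF1 letters were chosen after the longer form had been counted.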

Additional observations from a re-analysis of the deposited data

Results flagged for a closer look

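The difference between BA and E8 in SDHA changed with hours, by -0.59 on the log2 scale per 24 h (edgeR quasi-likelihood test of the interaction, adjusted p = 0.0044). It was marked because the trends of the 2 media differed in a test of the difference itself. At 6 h the first set had 69.8 CPM of SDHA in BA, against 68.3 CPM in E8, and at 48 h 39.1 CPM in BA, against 80.9 CPM in E8. In replicates 2 and 3 it was at 65.3 and 62.6 CPM in BA at 48 h, against 78.5 and 72.6 CPM in E8. SDHA together with its pseudogene copies summed to 80.6 CPM at 6 h and 50.9 CPM at 48 h in BA.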

How the results depend on the processing

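DESeq2 size factors in edgeR and scaling without mitochondrial rows kept direction and side of the threshold for all 22 gene calls, as did DESeq2 itself. Of all gene results under the alternatives, 225 kept both, 75 fell short of the threshold and 7 reversed. The reversals came with a spline of time, which gave BA minus E6 values of 0.15 for MT-ND1, 0.12 for MT-CO2, 0.19 for MT-CO3 and 0.10 for MT-CYB, and BA minus E8 values of 0.058 for UQCRFS1, 0.27 for COX8A and 0.13 for MT-CYB. The spline has no term for library set and tests level and time course jointly. It called 1 member in each of these comparisons, in place of 7. Replicates 2 and 3 alone called 1 member for BA at 24 h minus t0, 24 for BA at 48 h minus 24 h, 24 for E8 at 48 h minus t0, and 7 each for BA minus E6, BA minus E8 and E6 minus E8 at 48 h, in place of 0. The replicate block, which pairs libraries by number, called 1 for BA at 48 h minus 24 h, 11 for E8 at 48 h minus t0, 2 for BA minus E6 and 2 for BA minus E8 at 48 h, and changed no other call. DESeq2 called 1 for E8 at 48 h minus t0 and 1 for the change with hours of BA minus E6, in place of 0, and, within 1.5 times of 7, 10 for BA minus E6 over the hours and 8 for the trend in BA. Without 18 h and 24 h, a setting chosen after seeing the data, counts were 4 for BA minus E8, 2 for each change with hours in BA and 2 for the trend in BA, which gave 3 as 30 to 48 h against 6 to 24 h. Leaving out 1 hour gave 3 to 17 members for BA minus E6, 4 to 6 for BA minus E8, 0 to 4 and 1 to 2 for their changes with hours, 3 to 7 for the trend in BA, and 0 to 0 for the trends in E6 and E8, for E6 minus E8 and, leaving out 1 replicate, for the 6 replicated comparisons. The cause was not tested. Depth limits NDUFV2, at about 1 CPM.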
